A study of Mus musculus with 16 samples.

Results

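Oxidative phosphorylation is carried out by 5 protein complexes of the inner mitochondrial membrane, and 47 nuclear genes that encode their subunits are described here in mouse airway macrophages. The genes were chosen by symbol, as known subunits of complexes I to V or as cytochrome c, and all 47 were found among the 23159 gene symbols of the count table. They comprise 18 subunits of complex I, 4 of complex II, 6 of complex III, 11 of complex IV, 7 of complex V and cytochrome c itself. Ndufa4 carries an older complex I name and is counted with complex IV, where it is now placed.

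RNA was sequenced from macrophages that had been isolated from bronchoalveolar lavage, a wash of the airways. The mice were wild type (WT) or lacked Toll-like receptor 3 (TLR3-KO), an endosomal sensor of double-stranded RNA, and each genotype had a control and an injured group, the latter labelled as sampled following pneumonia. The pneumonia was caused by Klebsiella pneumoniae strain 43816, serotype 2, given at 500 CFU in 30 µl by deep hypopharyngeal injection. The protocol names saline as the other inoculum, while the controls' treatment label reads none. Each of the 4 groups had 4 libraries. Not given in the sources used here are the age, the background strain, the construction of the TLR3 allele and the time after infection. Nothing in the labels ties a library to its own mouse, and p-values therefore reflect only how far these libraries spread, which may be technical.

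Complex I takes electrons from NADH and complex II from succinate, and both pass them through ubiquinone to complex III. Cytochrome c carries them on to complex IV, which reduces oxygen. Complex V uses the resulting proton gradient to make ATP. Each complex has a catalytic core and, except for complex II, many small accessory subunits. In macrophages the balance between this pathway and glycolysis is known to shift with activation, and resting alveolar macrophages are known for a high use of oxidative phosphorylation.

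Total counts per library lay between 29667102 and 59640251. Tlr3 followed the genotype labels: it lay between 2.18 and 4.53 CPM, the count scaled to the library's total, in the WT libraries and between 0.274 and 0.717 CPM in the TLR3-KO libraries. In edgeR its log2 fold change in TLR3-KO against WT was -2.76 in controls (adjusted p = 0.000745) and -2.83 in injured mice (adjusted p = 0.000558). Xist, the RNA of X inactivation, stood at 42.3, 31.6 and 20.3 CPM across TLR3-KO controls 1 to 3 and at most at 0.23 CPM elsewhere, although the series title names male mice. Macrophage markers were abundant throughout. The lysozyme gene Lyz2 was at 26826 CPM or more in every library, and Chi3l3 and Marco, of alveolar macrophages, at 15250 and 580 CPM or more. The T cell marker Cd3e reached at most 1.48 CPM and the surfactant gene Sftpc at most 12.8 CPM. Other epithelial genes were counted more, with Krt19 between 99.0 and 566 CPM and Cdh1 between 25.9 and 127 CPM.

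Many genes of this pathway are known to be switched on by NRF1 and by ETS factors such as GABP. Short stretches that hold the letters of those motifs are shown to describe the members' promoters. Whether these letters bear on the members' counts was not tested. RefSeq promoters of 300 bases (GRCm38.p6, 250 before and 50 after the start) matched 36 of the 47 members. The ETS letters CCGGAAG were found on either strand in 10 of 36 (27.8%), against 9.93% of 27025 gene symbols with such a promoter. These symbols were taken whether or not the gene was expressed here, and no share among expressed genes was computed. The NRF1 core, whose letters stand in capitals in the first line below, was found on either strand in 2 of 36 (5.56%), against 1.07%, and the ERR letters TNAAGGTCA in 1 of 36 (2.78%), against 1.43%. The stretches below run 5′ to 3′ on the gene's strand, upstream of the start, with the motif in capitals. Cox6a1 (chr5:115349102-115349129, minus strand) carries the NRF1 core and, nearer the start (chr5:115348959-115348986), the ETS letters on the other strand. The ETS letters lie likewise before Cox6b1 (chr7:30626125-30626152, minus strand), Atp5h (chr11:115419940-115419967, minus strand) and Sdhd (chr9:50603878-50603905, minus strand), and on the gene's own strand before Ndufs3 (chr2:90904731-90904758, minus strand).
Cox6a1, NRF1 core: aggaacgggGCGCATGCGCgctctcgct
Cox6a1, ETS: tccccatttccgCTTCCGGcgcgccggt
Cox6b1, ETS: cctctcgcagCTTCCGGccagtcggaat
Atp5h, ETS: aaggagagaaCTTCCGGcaactctcttc
Sdhd, ETS: cgtctcctgcCTTCCGGttcacgcttca
Ndufs3, ETS: ccgcgtccgcCCGGAAGaagagtcactg
A match describes these letters in this window and is not evidence of binding.

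All 47 members were abundant enough to be tested, with levels that spanned a wide range. Levels between genes were compared as CPM per kilobase of exon, using all annotated exons of the gene in GENCODE M21 (mm10). The highest was Atp5b, the catalytic beta subunit of ATP synthase, with 246 ± 4.52 in WT controls, 256 ± 19.1 in WT injured, 265 ± 20.5 in TLR3-KO controls and 281 ± 4.55 in TLR3-KO injured libraries (SD, n = 4 each). Next came Cox6b1 at 215 and Atp5a1, the alpha subunit beside Atp5b, at 206, as means of the 4 groups. The lowest was Ndufb5, an accessory subunit of complex I, at 5.57, followed by Ndufs1, the largest core subunit of complex I, at 12.6. The order of near neighbours was not resolved, since the library ranges overlapped in 45 of 46 neighbouring pairs.

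Within complex I the levels ran from Ndufb5 up to Ndufa2 at 71.1 per kilobase, with a median of 35.8. Complex II ran from Sdhc, a membrane anchor, at 32.0 to Sdhd, the other anchor, at 136. Complex III ran from Uqcrq at 28.1 to Uqcrb at 112.9, complex IV from Cox6c at 20.2 to Cox6b1, and complex V from Atp5j at 34.9 to Atp5b. The order depended on the length chosen. Per kilobase of the principal transcript alone, a choice made after seeing the data, Atp5b was still highest at 579.5, Cox4i1 was next at 341, and Ndufa5 was lowest at 21.1 with Ndufb5 at 25.8.

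**Figure D1:**
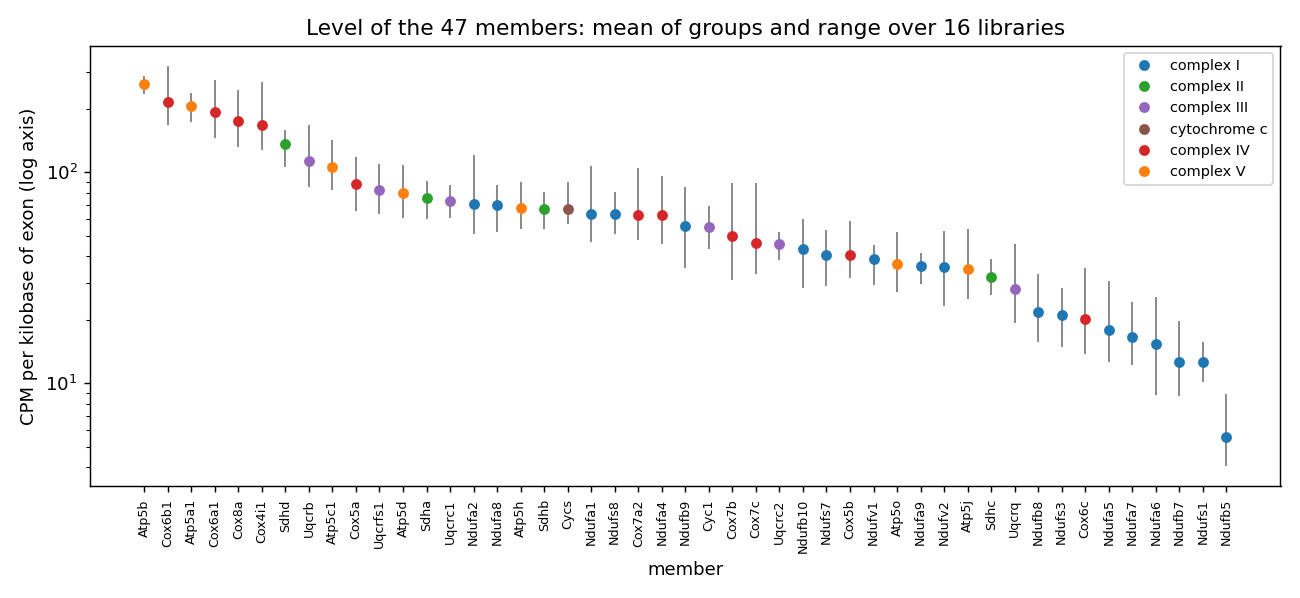
Level of each member as CPM per kilobase of exon (log axis); points are the mean of the 4 group means, coloured by complex, and lines span the 16 libraries. Atp5b is highest at 262 and Ndufb5 lowest at 5.57, and most neighbouring lines overlap.

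Several complex IV subunits have a second gene that is used in muscle, testis or other tissues, and these were counted far less. Cox6b2 held 7.33% of the counts of the Cox6b1 and Cox6b2 pair and Cox7a1 held 1.45% of the Cox7a2 and Cox7a1 pair. Cox6a2 and Cox4i2 held 0.188% and 0.0416% of their pairs. Cox7b2, Cox8c and Cyct, the testis cytochrome c, had 0 counts in all 16 libraries.

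No member passed the test for pneumonia in WT mice. The edgeR quasi-likelihood test called 0 of 47 at an adjusted p under 0.05, as it did for 0 of 12455 genes (0%). At an unadjusted p under 0.05 it found 3 of 47 members, all higher after pneumonia, against 6.27% of all genes higher. DESeq2 and limma voom also called 0 members. The log2 fold change was above 0 for 39 of 47 members (51.3% of all genes), with a median of 0.19 against 0.01 over all genes tested. Without WT injured library 1 the median was 0.03, with 27 of 47 above 0. By complex the medians were 0.27 for complex I, 0.05 for complex II, 0.15 for complex III, 0.26 for complex IV and 0.15 for complex V, and cytochrome c stood at 0.03.

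The lowest p belonged to Cox7c, a small subunit of complex IV. It was counted at 37.3, 37.4, 50.0 and 40.9 CPM across WT controls 1 to 4. In WT injured libraries 1 to 4 it was counted at 101, 61.4, 52.0 and 40.6 CPM. Injured library 1 was the highest and the groups overlapped. The log2 fold change was 0.51 (SE 0.23, adjusted p = 0.441), and 0.19 without that library. Ndufa6, an accessory subunit of complex I, read 15.8, 17.8, 27.4 and 22.2 CPM in controls and 46.0, 31.2, 28.7 and 21.3 CPM after pneumonia (log2 fold change 0.51, SE 0.24, adjusted p = 0.456). Its groups overlapped through injured library 4.

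The lowest fold changes were those of Sdha, Atp5a1 and Ndufs1. Sdha, the flavoprotein that oxidises succinate, was counted at 320, 322, 265 and 302 CPM across WT controls and at 263, 281, 280 and 361 CPM after pneumonia. Its log2 fold change was -0.14 (SE 0.15, adjusted p = 0.758), and the groups overlapped. Those of Atp5a1 and Ndufs1 were -0.11 (SE 0.12) and -0.09 (SE 0.13). In CPM from raw totals the groups stayed apart for 1 member, against 3.83% of all genes in that direction. This was Uqcrfs1, the Rieske iron-sulfur protein of complex III, at 99.5, 105, 92.9 and 86.8 CPM in controls and 149, 107, 106 and 107 CPM after pneumonia. Without injured library 1 its log2 fold change was 0.03.

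In TLR3-KO mice most of the members' fold changes were below 0, and again none passed. The test called 0 of 47 members, against 1.09% of all genes (136 of 12455). At an unadjusted p under 0.05 there were 10 members, all lower after pneumonia, against 11.9% of all genes lower. DESeq2 and limma voom called 0. The log2 fold change was above 0 for 6 of 47 members (48.5% of all genes), and its median was -0.26 against -0.01 over all genes. The medians were -0.29 for complex I, -0.02 for complex II, -0.13 for complex III, -0.38 for complex IV and -0.21 for complex V.

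Ndufb9, an accessory subunit of complex I, had the lowest p. It was counted at 65.3, 48.3, 87.9 and 81.2 CPM across TLR3-KO controls 1 to 4 and at 48.5, 47.6, 45.3 and 64.4 CPM after pneumonia. Control 2 lay among the injured libraries, so the groups overlapped, and the log2 fold change was -0.52 (SE 0.21, adjusted p = 0.158). Cox7b, a small subunit of complex IV, read 62.4, 47.4, 82.7 and 93.1 CPM in controls and 50.5, 43.9, 41.8 and 67.4 CPM after pneumonia (log2 fold change -0.54, SE 0.25, adjusted p = 0.207). Here too control 2 fell within the injured range.

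Ndufs1, the core subunit of complex I that carries several of its iron-sulfur clusters, differed in sign. It read 98.5, 110, 82.0 and 84.9 CPM across TLR3-KO controls and 110, 126, 121 and 106 CPM after pneumonia, with a log2 fold change of 0.23 (SE 0.13, adjusted p = 0.275). Sdha was at 0.20 (SE 0.15) and Atp5a1 at 0.10 (SE 0.12). Only Ndufv1, the subunit that binds NADH, kept the groups apart, as did 3.05% of all genes lower after pneumonia. It read 112, 110, 120 and 112 CPM in controls and 107, 102, 104 and 109 CPM after pneumonia.

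This comparison depended on which controls entered. Its controls included the 3 with Xist, while the injured libraries had hardly any of it. With controls 3 and 4 alone, 5 members passed, against 32.1% of all genes tested in that fit. Ndufb9, Ndufa6 and Cox7b were lower (log2 fold changes -0.73, -0.76 and -0.80), and Ndufs1 and Sdha were higher (0.46 and 0.48). The share of members, 5 of 47, was below the share of all genes.

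Between the control groups, the members were counted higher in TLR3-KO than in WT almost throughout. The 3 TLR3-KO controls with Xist entered this comparison, and no WT control had it at a like level. In those libraries genotype and what Xist marks cannot be told apart. The log2 fold change was above 0 for 45 of 47 (54.7% of all genes), with a median of 0.34 against 0.04 over all genes. The test called 0 of 47, against 0.658% of all genes (82 of 12455), and DESeq2 and limma voom called 0. At an unadjusted p under 0.05 there were 21 members, all higher, against 9.59% of all genes higher. In CPM from raw totals the groups did not overlap for 16 members, all higher in TLR3-KO, against 5.92% of all genes. Over all genes 737 were higher without overlap and 276 lower.

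Those 16 members came from every complex. They were Ndufa5, Ndufa8, Ndufb5, Ndufs7 and Ndufv1 of complex I, and Sdhb, Sdhc and Sdhd of complex II. Complex III gave Uqcrc1, Uqcrc2 and Cyc1, complex IV gave Cox5a, Cox5b, Cox6a1 and Cox8a, and complex V gave Atp5d. Ndufs7, a core subunit that carries an iron-sulfur cluster, had the lowest p. It was counted at 49.7, 53.8, 67.9 and 58.0 CPM across WT controls and at 86.5, 72.4, 81.6 and 85.9 CPM across TLR3-KO controls, with no overlap. Its log2 fold change was 0.44 (SE 0.14, adjusted p = 0.117).

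Ndufa6 had the highest fold change, at 0.64 (SE 0.24, adjusted p = 0.164), from 15.8, 17.8, 27.4 and 22.2 CPM to 32.1, 22.4, 40.1 and 42.0 CPM. TLR3-KO control 2 lay below WT control 3. Sdhb, the iron-sulfur subunit of complex II, read 121, 121, 145 and 139 CPM in WT and 168, 149, 181 and 175 CPM in TLR3-KO (log2 fold change 0.28, SE 0.11, adjusted p = 0.171). The 2 members below 0 were Ndufs1 at -0.14 (SE 0.13) and Sdha at -0.10 (SE 0.15), and Atp5a1 was at 0.03 (SE 0.12).

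Controls with the same number departed together from their group means, with correlations of 0.48 to 0.60 between the genotypes. With the replicate number as a block in a fit of the control groups alone, 22 of 47 members passed, all higher in TLR3-KO, against 16.3% of all genes and 6.71% in that direction. They included Ndufa6 (log2 fold change 0.63, adjusted p = 0.0232), Ndufb9 (0.49, adjusted p = 0.0242), Cox6c (0.49, adjusted p = 0.0263) and Atp5o of the ATP synthase stalk (0.41, adjusted p = 0.0327). With the block in the fit of all 4 groups, 0 members passed.

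After pneumonia the members' fold changes between genotypes were small and of mixed sign. The test called 0 of 47 members in TLR3-KO against WT injured mice, against 0.602% of all genes (75 of 12455), and DESeq2 and limma voom called 0. At an unadjusted p under 0.05 there was 1 member, Cox7c, lower in TLR3-KO, against 7.79% of all genes lower. The median log2 fold change was -0.07 against -0.01 over all genes, and 15 of 47 were above 0 (48.6% of all genes). Complex IV had a median of -0.34 and complex II of 0.08.

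The direction of that median rested on 1 library. Without WT injured library 1 it was 0.09, with 33 of 47 above 0. Cox7c read 101, 61.4, 52.0 and 40.6 CPM in WT injured libraries and 43.6, 40.3, 39.7 and 58.7 CPM in TLR3-KO injured libraries (log2 fold change -0.51, SE 0.23, adjusted p = 0.289). The groups overlapped, and the fold change was -0.20 without WT injured library 1. Atp5a1 did not overlap, as did not 9.14% of all genes higher in TLR3-KO. It read 633, 560, 541 and 677 CPM in WT and 745, 748, 740 and 691 CPM in TLR3-KO (log2 fold change 0.25, SE 0.12, adjusted p = 0.328).

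The difference between the pneumonia responses, TLR3-KO minus WT, combines the 4 groups. Its median over the members was -0.43 against -0.03 over all genes, and 6 of 47 members were above 0 (47.2% of all genes). The test called 0 of 47, as it did for 0 of 12455 genes (0%), and DESeq2 and limma voom called 0 members. At an unadjusted p under 0.05 there were 23 members, all lower, against 9.16% of all genes lower. The medians were -0.55 for complex I, -0.11 for complex II, -0.17 for complex III, -0.66 for complex IV with 0 of 11 above 0, and -0.30 for complex V.

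The lowest fold changes were those of subunits of complexes I and IV. Ndufa6 was at -1.05 (SE 0.33, adjusted p = 0.237), Cox7b at -1.02 (SE 0.36), Cox7c at -0.94 (SE 0.32), Cox6c at -0.84 (SE 0.30), Ndufb9 at -0.78 (SE 0.29) and Ndufa1 at -0.76 (SE 0.30). Uqcrq, a small subunit of complex III, came next at -0.76 (SE 0.28). The highest belonged to Sdha at 0.34 (SE 0.22), Ndufs1 at 0.32 (SE 0.18) and Atp5a1 at 0.22 (SE 0.17). Without WT injured library 1 the median was -0.24, and Ndufa6 was at -0.81. This difference shares its control libraries, the 3 with Xist among them, with the comparisons above and adds no separate evidence to them.

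**Figure D2:**
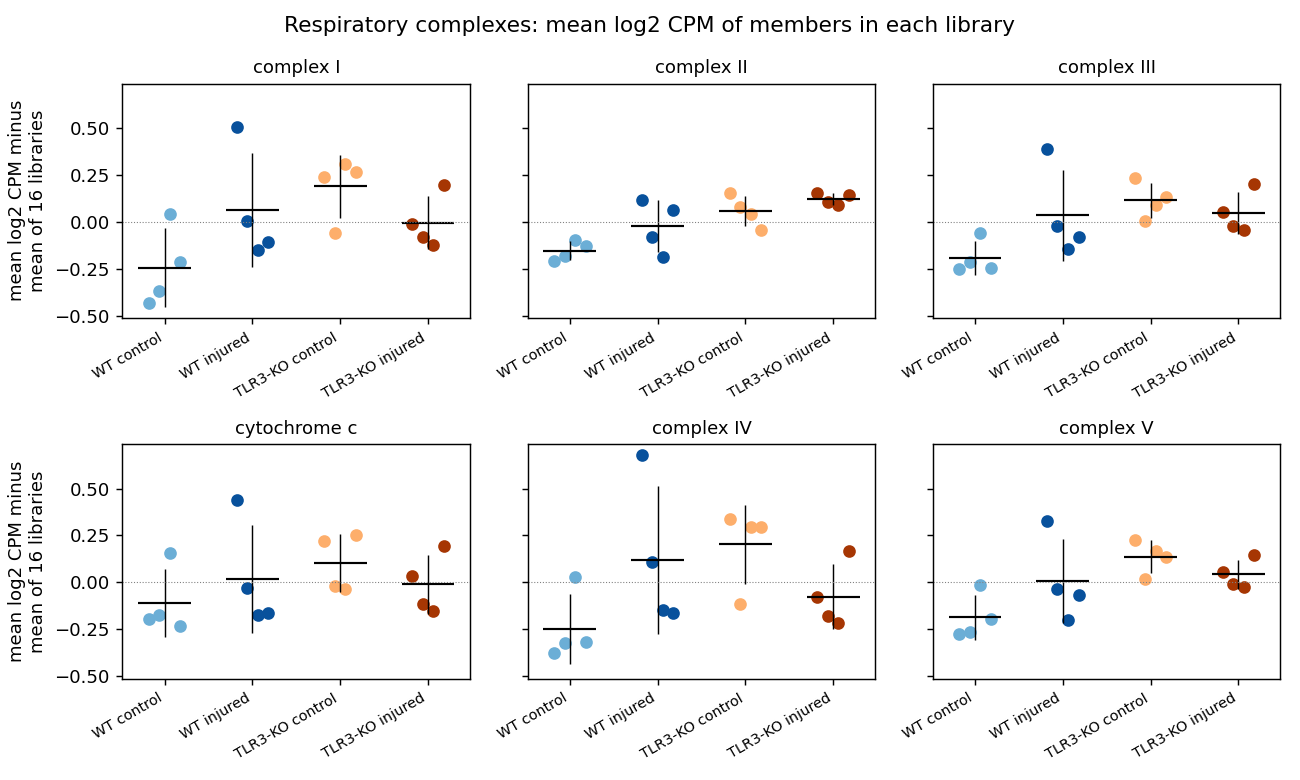
Mean log2 CPM of the members of each complex in each library, minus its mean over the 16 libraries; points are libraries 1 to 4 from left to right, bars are group means and lines 1 SD (n = 4). WT injured library 1 is high, most of all in complex IV and least in complex II, and WT controls 1, 2 and 4 lie below 0 in all 6 panels.

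Subunits of complexes I and V were also grouped by role, with no test of their difference. In the difference of responses the 12 accessory subunits of complex I had a median of -0.63 (-1.05 to 0.07) and the 6 core subunits of -0.37 (-0.58 to 0.32), so their ranges overlapped. The 3 subunits of the peripheral stalk of complex V had a median of -0.50 (-0.68 to -0.43) and the 4 of the F1 head and central stalk of -0.08 (-0.30 to 0.22). The accessory and stalk subunits also had shorter transcripts, with medians of 692 against 1354 bases in complex I and 809 against 1663 bases in complex V.

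Of transcript length and GC content, the fold changes followed length more closely. The principal transcript of the members had a median of 875 bases, from 419 in Ndufa1 to 3171 in Sdhc, against 2943 bases over the 12304 tested genes with a length. Across the 47 members, which share libraries and are not independent, the correlation of the log2 fold change with log2 length was -0.66 for pneumonia in WT and 0.73 in TLR3-KO. It was -0.75 between control genotypes, 0.66 between injured genotypes and 0.74 for the difference of responses. With GC content it lay between -0.12 and 0.22.

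Other genes of the same length were set beside the members. In the difference of responses the 25 members of up to 1000 bases had a median of -0.60 with 0 above 0, and 686 other genes of that length had -0.61. The 17 members of 1000 to 2000 bases had -0.27 and 2684 other genes -0.30. The 5 members of 2000 to 4000 bases, which are Sdha, Sdhc, Ndufs1, Atp5a1 and Cycs, had 0.22 and 5116 other genes 0.02. Between control genotypes the 25 short members had a median of 0.40 and the short other genes 0.38. For pneumonia the short members and the short other genes had 0.26 and 0.25 in WT, and -0.36 and -0.33 in TLR3-KO. Between injured genotypes the members had medians of -0.20, 0.02 and 0.18 from the shortest to the longest class, and the other genes -0.22, -0.10 and 0.02.

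**Figure D3:**
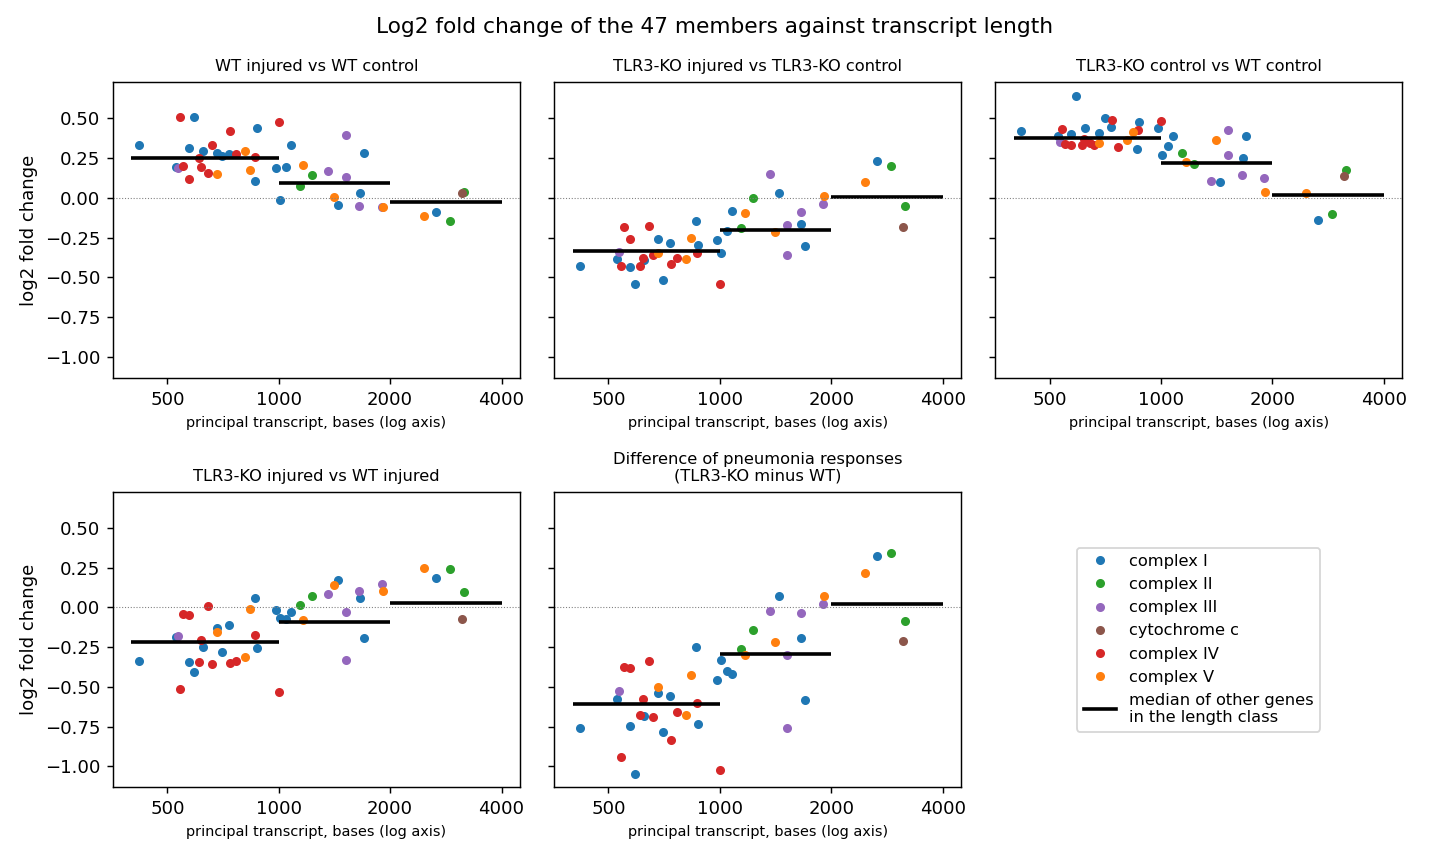
Log2 fold change of each member (points, coloured by complex) against the length of its principal transcript (log axis) in the 5 comparisons; black bars are medians of the other tested genes of each length class. In the difference of responses the short members have a median of -0.60 beside a bar at -0.61, and the 5 longest 0.22 beside a bar at 0.02.

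With a correction for length within each library, added after seeing the data, 3 of the 5 medians came close to 0. They were -0.01 for pneumonia in WT, -0.01 in TLR3-KO and -0.01 between control genotypes, with 21, 22 and 23 of 47 members above 0 and 47.5%, 48.2% and 50.6% of all genes. Between injured genotypes the median was 0.09 with 32 members above 0 (48.7% of all genes), further from 0 than without the correction. For the difference of responses it was 0.04 with 29 above 0 (49.9% of all genes). No member passed in any of the 5 comparisons, in which 0.0723%, 2.26%, 1.61%, 0.988% and 0% of all genes did. In the control groups with the replicate block and the length correction, 0 of 47 members passed, against 8.17% of all genes, and Ndufv2 came nearest (log2 fold change 0.24, adjusted p = 0.0909). After correction the difference of responses was lowest for Cox7b at -0.55 (SE 0.21), Uqcrq at -0.47 (SE 0.20) and Ndufa6 at -0.38 (SE 0.15), with adjusted p of 0.292, 0.317 and 0.292.

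**Figure D4:**
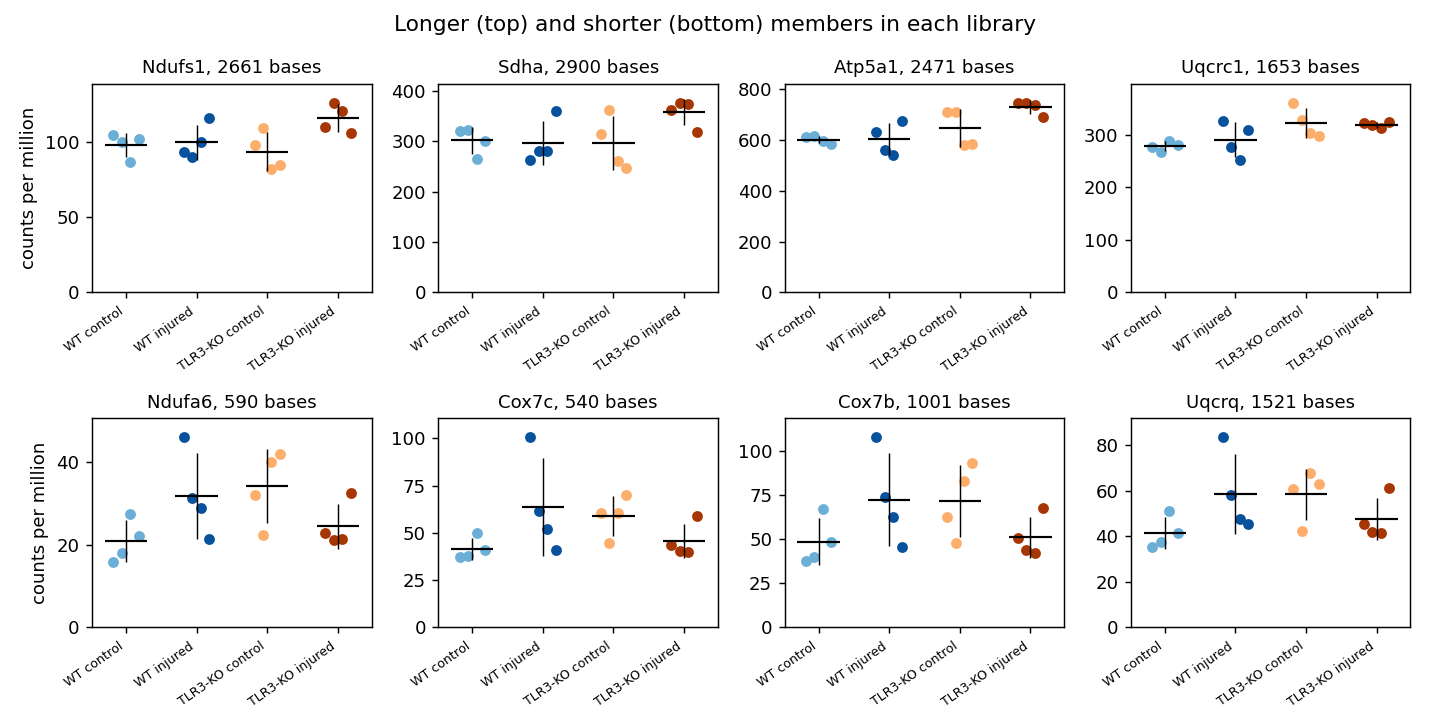
CPM of 4 members with longer transcripts (top, 1653 to 2900 bases) and 4 with shorter ones (bottom, 540 to 1521 bases) in each library. Uqcrc1 in the top row and Uqcrq and Cox7b in the bottom row share the class of 1000 to 2000 bases. Points are libraries 1 to 4 from left to right, bars are means and lines 1 SD (n = 4), with axes from 0. Ndufa6 and Cox7c peak in WT injured library 1 at 46.0 and 101 CPM, where Sdha is at 263 CPM.

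The same few libraries set the extremes of most members. WT injured library 1 held the highest value of all 16 libraries for 33 of 47 members, and WT control 1 the lowest for 27. Within groups, WT injured library 1 was highest for 44 members, WT control 3 for 41 and TLR3-KO injured library 4 for 40, and TLR3-KO control 2 was lowest for 34. The mean log2 CPM of the 47 members, relative to its mean over all libraries, ran from -0.35 in WT control 1 to 0.47 in WT injured library 1.

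The balance between short and long transcripts of other genes ranked the libraries alike. This balance was the median over 686 other genes of up to 1000 bases minus that over 3771 genes above 4000 bases. Each gene's log2 CPM was first taken relative to its mean over the 16 libraries. It was also lowest in WT control 1, at -0.46, and highest in WT injured library 1, at 0.67. No library's rank differed by more than 4 of 16 places between that balance and the members' mean. What sets the balance was not tested.

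**Figure D5:**
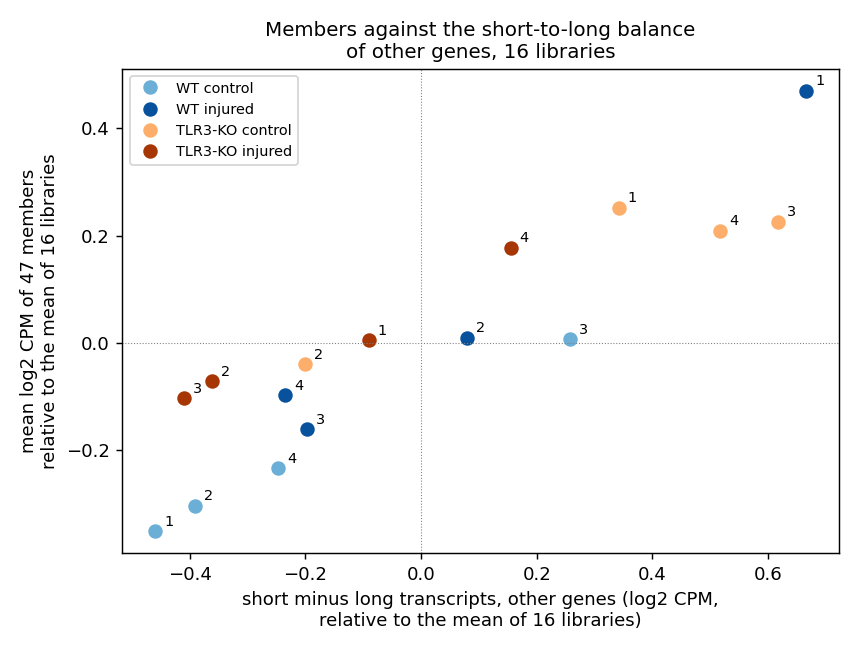
Mean log2 CPM of the 47 members against the short-minus-long balance of other genes, both relative to the mean of 16 libraries; points are libraries, numbered by replicate. The libraries run from WT control 1 at -0.46 and -0.35 to WT injured library 1 at 0.67 and 0.47.

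Other nuclear genes of the pathway were read in the same fit, and none passed in any comparison. The lists held 18 other subunits of complex I, 3 of complex III, 1 of complex IV and 11 of complex V, 46 assembly factors, 15 regulators, 18 genes of the tricarboxylic acid cycle and 7 carriers, as tested. The other subunits gave values like the members'. In the difference of responses all 18 of complex I and all 11 of complex V were below 0, with medians of -0.52 and -0.70, and Usmg5, a small subunit of complex V, was at -1.26 (SE 0.41, adjusted p = 0.237). Assembly factors had a median of -0.32, with Surf1, needed to build complex IV, at -0.72 (SE 0.20).

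In the difference of responses the regulators had a median of -0.03, with 7 of 15 above 0, and the tricarboxylic acid cycle one of 0.13, with 13 of 18 above 0. Gabpa, the DNA-binding subunit of GABP, was at 0.55 (SE 0.19) and Nrf1 at 0.48 (SE 0.16), both with an adjusted p of 0.237. Gabpa was lower in TLR3-KO than in WT controls by a log2 fold change of -0.49 (SE 0.13, adjusted p = 0.0865), at 27.6, 46.4, 36.0 and 38.3 CPM against 49.5, 49.0, 46.0 and 51.9 CPM. TLR3-KO control 2 lay above WT control 3, so the groups overlapped. The principal transcript of Gabpa has 4987 bases and that of Nrf1 1879. Other genes above 4000 bases had medians of 0.22 in the difference of responses and -0.16 between controls. Those of 1000 to 2000 bases had -0.30 in the difference. Whether length bears on the regulators' values was not tested. Ppargc1a, the coactivator known for mitochondrial biogenesis in muscle and brown fat, was at most at 0.23 CPM, and its relative Ppargc1b reached 16.1 CPM.

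Irg1, which makes itaconate, an inhibitor of complex II, varied widely from library to library. It read 99.0, 73.7, 9.48 and 34.6 CPM across WT controls, 7.71, 115, 236 and 65.0 CPM in WT injured, 7.75, 3.64, 6.81 and 10.7 CPM across TLR3-KO controls and 102, 14.8, 41.7 and 140 CPM in TLR3-KO injured libraries. The TLR3-KO groups did not overlap, as was so for 1401 of 12455 genes higher after pneumonia and for 6 of 18 in the tricarboxylic acid cycle list. The log2 fold change of Irg1 there was 3.32 (SE 0.90, adjusted p = 0.0711), and in WT the groups overlapped. Its control groups had a log2 fold change of -3.03 (SE 0.89, adjusted p = 0.1).

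Transcripts of other cells were summed in the same libraries. In bulk RNA, fewer cells of a type and less RNA per cell cannot be told apart. Summed over 8 erythroid markers, CPM ran from 11.4 to 151 in WT controls, 331 to 710 in WT injured, 41.4 to 495 in TLR3-KO controls and 73.8 to 199.5 in TLR3-KO injured libraries. Summed over 15 neutrophil markers it ran from 50.5 to 86.4, 87.4 to 298, 69.7 to 104 and 120 to 209, and over 13 lung epithelial markers from 180 to 358, 234 to 535, 256 to 713 and 626 to 758. Over 8 recruited monocyte markers it ran from 289 to 775, 325 to 957, 311 to 895 and 727 to 1454. Most of this sum was Fn1, at 286 to 1447 CPM. No other gene of the list exceeded the 4.73 CPM of Ccr2. For pneumonia 7 of the 8 were above 0 in WT (median log2 fold change 0.53) and 4 of 8 in TLR3-KO (0.07), with 0 called in either. The neutrophil gene S100a8 lay between 3.49 and 52.5 CPM, and the globin gene Hba-a1 was listed at 0 throughout. Sums of 8 macrophage markers lay between 30012 and 41435 in every group, and most of this was Lyz2, at 26826 to 38490 CPM. Sums of 13 T and NK cell markers ran from 0.96 to 7.13, 2.92 to 7.49, 1.66 to 14.3 and 2.14 to 6.10, and of 7 dendritic cell markers from 9.97 to 16.7, 10.5 to 14.6, 15.7 to 33.8 and 14.4 to 16.4. Of the tested T and NK cell genes, 12 of 12 were above 0 between control genotypes (median log2 fold change 1.07) and 0 of 12 in the difference of responses (-1.87), with 0 called in either. Of the dendritic cell genes 5 of 6 were above 0 between control genotypes (0.84) and 1 of 6 in the difference (-0.73), also with 0 called. The largest part of the lung epithelial sum was Krt19. Its means were 158 CPM in WT controls, 265 in WT injured, 316 in TLR3-KO controls and 518 in TLR3-KO injured libraries. For pneumonia 4 of the 13 epithelial genes were above 0 in WT (median log2 fold change -0.42) and 9 of 13 in TLR3-KO (0.70), with 0 called in either. In WT 3 of the 13 lay lower without overlap, against 85 of 12455 genes. Of the lung epithelial genes 4 of 13 were called higher in TLR3-KO than in WT injured libraries, against 47 of 12455 genes. In CPM 9 of the 13 lay higher there without overlap, against 9.14% of all genes, and 1 lay lower without overlap. The part of these cells in the members' values was not tested. Exons of 16 members are overlapped by another gene, as Atp5j is by Gabpa on the opposite strand, and the sources used here do not give the strand setting of the counting.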

How the data were processed

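The 47 members, the other lists and the tests were chosen with earlier results of these data known. Per the labels' protocols, TruSeq mRNA libraries from RNeasy-purified RNA were read in pairs of 50 bases. Per the submitters' processing notes, FastQC 0.11.3, TopHat2 2.0.13, Bowtie2 2.2.1, Cufflinks and Cuffdiff 2.1.1 were used with mm10. The deposited values are raw whole-number counts per gene symbol, from HTSeq per the table's name; for HTSeq, the version, strand setting and gene models are not given in the sources used here.

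All 16 columns were matched to groups by the labels. Genes were kept by filterByExpr (minimum count 10), which left 12455 of 23159, scaled by TMM (0.896 to 1.07) and fitted with edgeR 4.0.16 (R 4.3.3), glmQLFit with robust = TRUE and 1 coefficient per group. P-values were adjusted across all 12455 genes by Benjamini-Hochberg, and 0.05 was the threshold. The SE is the log2 fold change divided by the square root of F. CPM use raw totals, and log2 CPM a prior of 0.5 counts. Overlap between groups was judged on these CPM, without the TMM factors. Transcript lengths are GENCODE M21 principal transcripts (12304 genes, 98.8% of those tested, and all 47 members). The length correction subtracts a loess fit on log2 length in each library. The lowest and highest same-number correlations were 0.48 and 0.60 between control genotypes, so the blocked count is given there; no label states what the number marks. On simulated data the fit recovered 3.08% to 16.2% of 1.5-fold, 25.4% to 68.1% of 2-fold and 93.8% to 98.6% of 4-fold changes over the 5 comparisons. The simulation gave every gene the same biological CV of 0.238, so these shares do not describe members whose spread differs from it.

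Named members were, per comparison, the 6 with the lowest p and the highest and lowest fold change in each complex, and for other pathway genes the 2 with the lowest p in each list; Ppargc1a, Ppargc1b, Ndufv2 and the members whose groups did not overlap were named after their values were seen. Alternatives were RLE scaling, DESeq2 1.42.0, limma 3.58.1 voom, no filter or a filter of 5 CPM in 4 libraries, the replicate block, fits of 2 groups, subsets of the controls and each library left out. Those chosen after seeing the data were the length, the length and GC and the block with length corrections, and a fit without robust. Of 26 genes of the mitochondrial genome, 0 symbols were matched and they were not analysed here. Python 3.11.15 was used with pandas 2.3.3 and matplotlib 3.10.9.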

Additional observations from a re-analysis of the deposited data

Results flagged for a closer look

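Within groups of 4 libraries, 15 of 140 sets of values had 1 library far from the rest. Chance gives about 1 in 20 for independent sets. These sets share libraries and members, so their count cannot be set against that rate. WT control 3 was the high one for Cox5b (58.3 CPM), Cox7a2 (60.8), Cycs (253), Ndufb5 (26.0) and the mean log2 CPM of complex IV (6.61). TLR3-KO control 2 was the low one for Cox6c (64.3 CPM), Cox7a2 (50.0) and the mean of complex IV (6.47), and TLR3-KO control 1 the high one for Cox5a (241 CPM). WT injured library 1 was the high one for Ndufb5 (44.4 CPM) and Uqcrfs1 (149). TLR3-KO injured library 4 was the high one for Cox6c (80.0 CPM), Ndufa6 (32.6) and Ndufb9 (64.4), and the low one for Atp5a1 (691).

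The pneumonia response of complex IV had opposite signs in the genotypes for all 11 members, and its mean log2 CPM response in TLR3-KO minus that in WT was -0.65. Without WT injured library 1, 8 of the 11 were above 0 in WT, and with the length correction 6 of 11 were above 0 in WT and 3 of 11 in TLR3-KO. That mean was not tested, and no single member passed the test of the difference.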

How the results depend on the processing

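On simulated data, with the same spread for every gene, most 1.5-fold changes were missed. Of 47 members, 0 passed in every comparison under every alternative, apart from the 5 after pneumonia in TLR3-KO with controls 3 and 4 only and the 22 between control genotypes with the replicate block in a fit of 2 groups. The replicate block changed no other call of a member. The medians kept their sign when any 1 library was left out, except between injured genotypes (-0.16 to 0.09); the ranges were 0.03 (without WT injured library 1) to 0.28 for pneumonia in WT, -0.33 to -0.18 in TLR3-KO, 0.25 to 0.43 between controls and -0.53 to -0.24 for the difference of responses.

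Length corrections, chosen after seeing the data, moved the medians most. They were -0.012 for pneumonia in WT, -0.014 in TLR3-KO, -0.0076 between controls and 0.038 for the difference with length alone. With length and GC they were -0.010, -0.0016, 0.00016 and 0.025, and with the replicate block and length -0.0057, -0.0012 and -0.0061 in the first 3. The correction removes differences that follow length by its construction.

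Of the other pathway genes, 9 passed for pneumonia in WT with controls 1 and 2 only. For pneumonia in TLR3-KO 4 passed with DESeq2, 1 with the replicate block and 1 with the block and length correction. With controls 3 and 4 only 35 passed, against 32.1% of all genes tested in that fit. With 1 library left out 0 to 8 passed, the 8 without TLR3-KO control 2. Between controls 5 passed with DESeq2, 28 with the replicate block and 4 with the block and length correction. In fits of the control groups alone, 16.3% of all genes passed with the block and 8.17% with the block and length correction. Between controls with 1 library left out 0 to 3 passed, the 3 without WT control 3 and 2 without TLR3-KO control 2. Shares of all genes under the other settings are not given here, so these counts are not read as a result about the pathway. Tlr3 between controls was at -3.15 (adjusted p = 0.0546) without the 3 TLR3-KO controls with Xist, which leaves 1 control. With TMM totals the mean log2 CPM of complex II was 7.32 in WT controls and 7.46 in TLR3-KO injured libraries. Where no cause is named here, the cause was not tested.

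Members that changed sign did not pass the threshold under either setting; the furthest from 0 before the change were Cox4i1 (0.32) and Sdhb (0.28) between controls and Cox5a (-0.34) and Sdhb (-0.27) in the difference. For pneumonia in WT, controls 3 and 4 only gave Uqcrc2 0.063, Ndufs1 0.044 and Sdha 0.025; Cox6a1 was -0.20 with length, -0.20 with length and GC and -0.20 with the block and length, and Sdhd -1.5e-05 with length. With 1 library left out Cycs ran from -0.14 to 0.12 and Cox6a1 from -0.073 to 0.25. For pneumonia in TLR3-KO, controls 1 and 2 only gave Atp5a1 -0.075, Uqcrfs1 -0.0052 and Sdha -0.030, and Cox5a was 0.031 without the 3 controls with Xist. With length, with length and GC, and with the block and length, Cox5a was 0.13, 0.12 and 0.16 and Sdhb 0.049, 0.039 and 0.052.

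Between controls Atp5a1 was -0.094 with controls 3 and 4 only and -0.23 without the 3 with Xist, where Uqcrfs1 was -0.11. With 1 library left out Atp5a1 ran from -0.055 to 0.11 and Sdha from -0.22 to 0.0060. With length, with length and GC, and with the block and length, Atp5a1 was -0.016, -0.015 and -0.021, Cox4i1 -0.025, -0.11 and -0.030 and Uqcrfs1 -0.12, -0.089 and -0.12; Sdhb was -0.034 with length and GC. Between injured genotypes Cox5a was -0.0013 with RLE, -0.0012 with DESeq2, -0.014 with the 5 CPM filter and -0.0018 in the fit of 2 groups, and Sdhb -0.0048 with that filter. With 1 library left out Cycs ran from -0.15 to 0.093, Cox5a from -0.095 to 0.17 and Sdhb from -0.056 to 0.11. For the difference of responses Uqcrc2 was -0.026 with the 5 CPM filter and ran from -0.035 to 0.098 with 1 library left out; with length, and with length and GC, Cox5a was 0.27 and 0.25 and Sdhb 0.14 and 0.12.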
